A study of Mus musculus with 15 samples.

Results

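Bone morphogenetic protein (BMP) signaling was described here through 10 genes, matched by symbol in the deposited expression table of 35880 gene symbols: the ligands *Bmp2* and *Bmp4*, the receptors *Bmpr1a* and *Bmpr2*, the antagonist *Grem1*, the SMAD target genes *Id1*, *Id2* and *Id3*, and the inhibitory SMADs *Smad6* and *Smad7*. They were chosen with their CPM (counts relative to the total of the sample) in these 15 samples already known. Their levels and differences between lines are therefore given as a description, without p-values, and counts of members past a call rule serve only to describe the size of the differences. All 10 passed the filter on low values, under which the CPM of a gene had to reach 3 when added up across samples, as did 14652 of all 35880 genes.

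BMP ligands are secreted proteins of the TGF-beta family. They bind pairs of type I and type II serine/threonine kinase receptors, which phosphorylate SMAD1, SMAD5 and SMAD9, and these enter the nucleus with SMAD4. The *Id* genes, whose products bind basic helix-loop-helix factors and keep them off DNA, are textbook targets of this pathway, and *Smad6* and *Smad7* are targets that feed back on the receptors. Antagonists such as gremlin 1, the product of *Grem1*, hold ligands outside the cell, and in the lung BMP signaling is best known from branching, vessel growth and repair.

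The samples came from LL2/Luc2, a luciferase-carrying line of the mouse Lewis lung carcinoma, grown in DMEM with 10% FBS. The lines were LL2 WT (the unedited parent), 3 *KEAP1* KO lines (#1, #2 and #3, which have lost the protein that marks NRF2 for degradation) and 1 *NRF2* KO line, all made by CRISPR and each with 3 biologic replicates. No treatment was given. Each knockout line is 1 clone grown from a single cell, whereas LL2 WT is not clonal, so the loss of the gene and the history of the clone cannot be told apart within a line. The replicates are samples of the same line, and the spread between them is the spread between cultures and libraries.

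Over all genes, the CPM of a sample summed to nearly the same total, and how deeply each sample was sequenced is unknown. A level of 0.1 CPM is used below as a floor. It stands for about 3 reads at the study's average depth if the values are CPM unscaled by gene length, which the files leave uncertain, and it covers counting error only. Of the edited genes, *Keap1* followed the labels and *Nfe2l2* did not set the *NRF2* KO line apart from the *KEAP1* KO lines. *Keap1* averaged 23.0 ± 1.03 CPM in LL2 WT (SD, n = 3, as for every ± that follows), against 11.8 ± 0.889, 5.53 ± 1.57 and 5.58 ± 1.60 CPM for *KEAP1* KO #1, #2 and #3, and *Nfe2l2*, which encodes NRF2, was at 119 ± 24.0 CPM in *NRF2* KO against 186 ± 19.6 CPM in LL2 WT, but also at 96.4 to 123 CPM on average in the *KEAP1* KO lines. The NRF2 target *Nqo1* was at 30.3 ± 5.48 CPM in LL2 WT, at 276 to 488 CPM on average in the *KEAP1* KO lines and at 9.82 ± 1.21 CPM in *NRF2* KO. Of 4 lung epithelial markers, *Nkx2-1* and *Scgb1a1* lay under 0.1 CPM in every sample, *Sftpc* averaged at most 0.159 CPM in a line, and *Sftpb* was called higher in the 3 *KEAP1* KO lines (means of 0.338, 0.448 and 0.682 CPM) than in LL2 WT (0.0381 CPM), with 0.120 CPM in *NRF2* KO. The epithelial genes *Epcam* and *Cdh1* were under 0.1 CPM throughout, while the keratin *Krt18* averaged 296 to 534 CPM per line. Neither *Krt18* nor the keratin *Krt8* was called against LL2 WT in any line. The log2 fold changes of *Krt8* differed in sign, at −0.44 for *KEAP1* KO #1, 0.76 for #2, 0.43 for #3 and −0.15 for *NRF2* KO. Those of *Krt18* were −0.87, −0.39, −0.28 and −0.53 in the same order. The mesenchymal *Vim* was called lower in all 3 *KEAP1* KO lines (log2 fold changes −1.19, −1.33 and −1.27) and not in *NRF2* KO (−0.25), and *Fn1* in #2 and #3 (−3.53 and −3.51). The sum of both ran from 3566 to 5794 CPM in LL2 WT, 1694 to 2146 in *KEAP1* KO #1, 1548 to 1927 in #2, 1605 to 2074 in #3 and 3232 to 4553 in *NRF2* KO. Of 4 fibroblast markers, *Col1a1* was called lower in #2 and #3 and *Pdgfra* in #3, and *Lum* was under 0.1 CPM in every sample. The remaining marker, *Dcn*, was not called against LL2 WT in any line. Its log2 fold changes were −1.09 for *KEAP1* KO #1, −0.60 for #2, 0.12 for #3 and −0.93 for *NRF2* KO. The sum of these 4 markers ran from 7.47 to 19.4 CPM in LL2 WT and 3.47 to 9.50 in *KEAP1* KO #1. It ran from 5.65 to 8.11 in #2, 2.33 to 4.22 in #3 and 4.32 to 9.38 in *NRF2* KO. The sum of 4 blood cell markers ran from 2.00 to 4.54 CPM in LL2 WT, 5.02 to 9.31 in *KEAP1* KO #1, 8.94 to 22.7 in #2, 14.1 to 36.8 in #3 and 1.84 to 3.22 in *NRF2* KO, nearly all of it *Cd68*, with *Cd3e* under 0.1 CPM in every sample. The mesenchymal and blood cell sums of the 3 *KEAP1* KO lines lay apart from those of LL2 WT and *NRF2* KO. The fibroblast sums of *KEAP1* KO #1 and #2 overlapped both. The part of these markers in the values below was not tested.

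In GRCm38.p6 (GENCODE M21), 9 of the genes are found as follows: *Bmp2* at chr2:133552159-133562885, *Grem1* at chr2:113746164-113758646, *Id1* at chr2:152736251-152737410, *Bmp4* at chr14:46383520-46390669, *Bmpr1a* at chr14:34410734-34503341, *Bmpr2* at chr1:59763400-59879014, *Id2* at chr12:25093799-25097140, *Id3* at chr4:136143497-136145755, *Smad6* at chr9:63953076-64022059. All 10 members are protein coding. Little of their sequence is shared with other genes: of the 31-base stretches of their transcripts, at most 1.6% (*Id2*, with the related *Gm6175*) also occur on the same strand of another gene's transcript. On the opposite strand the highest share was 4.08%, for *Bmpr1a*, which is overlapped by *Gm17110*, so a small part of the *Bmpr1a* value cannot be separated from that gene if strand was not used.

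Promoters of a ligand, the antagonist and an inhibitory SMAD are shown, as the windows free of annotated exons, because SMAD factors and NRF2 are known to bind DNA at short motifs. RefSeq sequence (GRCm38.p6) was at hand for 7 of the 10 genes: *Bmp4*, *Bmpr1a*, *Bmpr2*, *Grem1*, *Id2*, *Id3* and *Smad6*. The 250 bases before the start site were searched on both strands for GGCGCC (a GC-rich SMAD element), CAGAC (the SMAD box) and TGACNNNGC (the core of the antioxidant response element that NRF2 binds). Matches are in capitals and do not overlap one another. The windows are chr14:46390670-46390919 for *Bmp4*, chr2:113758649-113758898 for *Grem1* and chr9:64022060-64022309 for *Smad6*, all on the minus strand and written 5′ to 3′.
Bmp4: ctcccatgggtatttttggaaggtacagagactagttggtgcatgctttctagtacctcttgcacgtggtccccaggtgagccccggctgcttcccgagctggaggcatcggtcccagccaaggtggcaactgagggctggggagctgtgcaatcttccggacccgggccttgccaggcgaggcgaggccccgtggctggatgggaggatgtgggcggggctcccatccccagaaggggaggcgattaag
Grem1: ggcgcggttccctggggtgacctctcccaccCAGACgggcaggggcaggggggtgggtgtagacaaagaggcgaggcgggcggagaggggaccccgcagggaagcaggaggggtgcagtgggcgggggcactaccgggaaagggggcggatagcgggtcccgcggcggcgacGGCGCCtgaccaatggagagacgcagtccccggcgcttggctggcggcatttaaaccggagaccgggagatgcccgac
Smad6: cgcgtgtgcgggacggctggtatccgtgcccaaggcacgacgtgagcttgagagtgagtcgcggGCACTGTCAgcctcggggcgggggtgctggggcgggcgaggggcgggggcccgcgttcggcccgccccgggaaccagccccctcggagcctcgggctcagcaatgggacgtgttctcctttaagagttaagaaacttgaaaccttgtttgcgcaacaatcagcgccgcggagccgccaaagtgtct
*Grem1* holds GGCGCC and CAGAC, *Smad6* holds TGACNNNGC (printed here on its reverse strand), and these letters do not occur in the *Bmp4* window. GGCGCC was found in 4 of the 7 promoters (*Bmpr1a*, *Bmpr2*, *Grem1* and *Id2*), against 9.59% of all 32851 RefSeq promoters of the same length. CAGAC was found in 2 of 7 (*Grem1* and *Id3*) against 42.2%, and TGACNNNGC in 1 of 7 against 3338 of the 32851. The member windows were 62.8% to 78.8% G and C, and the shares over all promoters were not matched for this. Those of *Bmpr1a*, *Bmpr2*, *Id2* and *Id3*, which are not shown, overlap annotated exons of the gene itself.

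Across the 4 comparisons with LL2 WT, 4 of the 10 members (*Bmp2*, *Bmp4*, *Grem1* and *Id2*) went past the call rule at least once. The rule asked for an adjusted p under 0.05 and for a log2 fold change beyond 1 in either direction, from limma on log2(CPM + 0.1) with all 15 samples in one model. In *KEAP1* KO #1, 2 members were past it (*Id2* higher, *Grem1* lower), beside 8.54% of all genes tested. *KEAP1* KO #2 had 4 (*Id2* higher, *Bmp2*, *Bmp4* and *Grem1* lower) beside 13.7%, and *KEAP1* KO #3 had the same 4 genes in the same directions beside 13.4%. In *NRF2* KO there were 2 (*Bmp2* and *Bmp4*, both lower) beside 0.464%. The 4 comparisons share the LL2 WT samples, and since values of these contrasts were known when the genes were chosen, nothing is read from the counts. Over all genes, *KEAP1* KO #1 had 667 calls higher and 584 lower, which became 553 and 714 with median-ratio rescaling (the all-gene median moving from 0.11 to 0.01 on the log2 scale) and 605 and 751 with quantile normalization.

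The members whose 3 samples lay wholly above or below LL2 WT are given with the share of all genes that did so. In *KEAP1* KO #1, 4 members were apart (*Id2*, *Smad6* and *Smad7* higher, *Grem1* lower) beside 37%. In *KEAP1* KO #2 and #3, 6 members each were apart (*Id1* and *Id2* higher, *Bmp2*, *Bmp4*, *Grem1* and *Bmpr1a* lower) beside 42% and 40%. In *NRF2* KO, *Bmp2* and *Bmp4* were apart beside 13.2%. The median log2 fold change over the 10 members was 0.45, −0.03, −0.07 and −0.14 in the order of these comparisons, against 0.11, 0.03, 0.02 and 0.04 over all genes tested.

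**Figure D1:**
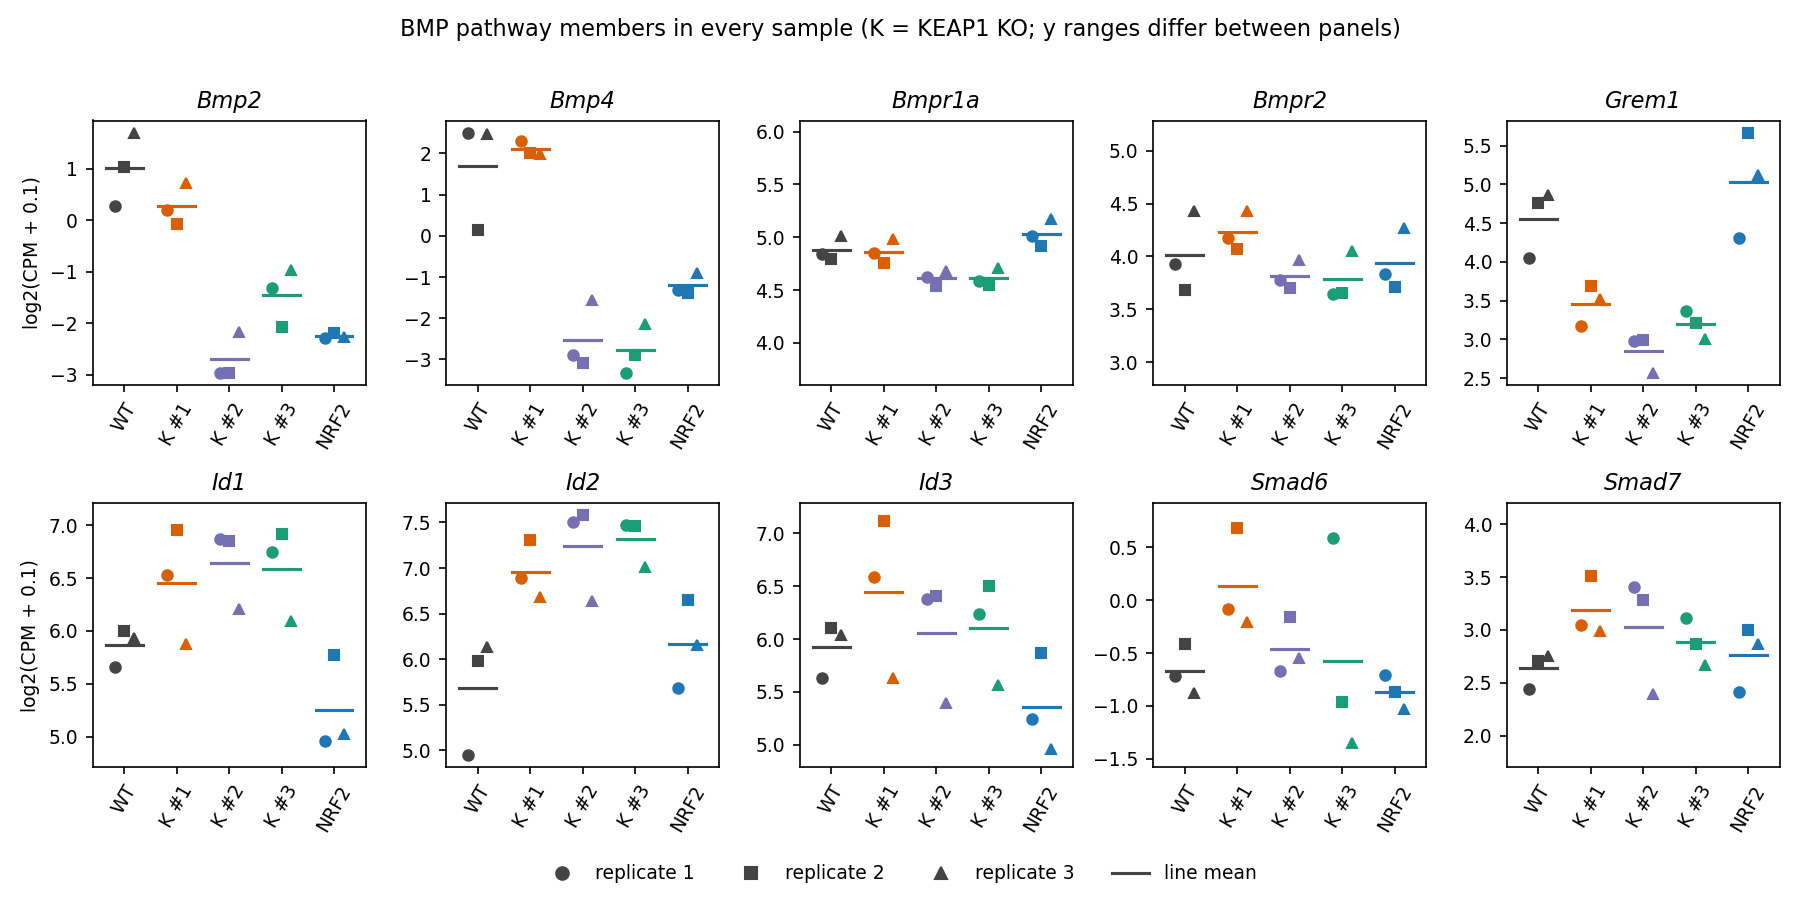
Each panel plots 1 member as log2(CPM + 0.1) in all 15 samples, by line, with a symbol for each replicate and a bar at the mean of these log2 values; the y ranges differ between panels. *Bmp2* and *Bmp4* sit low in *KEAP1* KO #2, *KEAP1* KO #3 and *NRF2* KO, *Grem1* is low in the 3 *KEAP1* KO lines and *Id2* is high in them.

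The ligand *Bmp2*, an inducer of bone and of SMAD1/5 signaling in many tissues, was present at a low level in LL2 WT and lower still in 3 of the 4 knockout lines, with a mean under the floor in *KEAP1* KO #2. LL2 WT had 1.11, 1.94 and 3.15 CPM (2.07 ± 1.03) and *KEAP1* KO #1 had 1.05, 0.845 and 1.55 CPM (1.15 ± 0.362). *KEAP1* KO #2 had 0.0284, 0.0285 and 0.122 CPM (0.0597 ± 0.0542). The LL2 WT samples and those of *KEAP1* KO #1 overlapped, and every sample of *KEAP1* KO #2 lay below both. *KEAP1* KO #3 had 0.300, 0.136 and 0.411 CPM (0.283 ± 0.138), and *NRF2* KO had 0.105, 0.120 and 0.108 CPM (0.111 ± 0.00789). In the order of their means the lines ran LL2 WT, *KEAP1* KO #1, *KEAP1* KO #3, *NRF2* KO and *KEAP1* KO #2, and LL2 WT with *KEAP1* KO #1 and *NRF2* KO with *KEAP1* KO #2 were the neighbours that overlapped. The log2 fold changes against LL2 WT were −0.72 in *KEAP1* KO #1, −3.70 in #2, −2.46 in #3 and −3.25 in *NRF2* KO (standard error 0.42 each). As ratios of means, *Bmp2* was 7.32-fold lower in *KEAP1* KO #3 and 18.6-fold lower in *NRF2* KO. Its mean in *KEAP1* KO #2 was under the floor, and measured against the floor the ratio was 20.7.

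*Bmp4*, a ligand of the same subgroup that patterns the lung bud, differed even more between clones of the same genotype. LL2 WT had 5.59, 0.995 and 5.49 CPM (4.02 ± 2.62) and *KEAP1* KO #1 had 4.82, 3.93 and 3.85 CPM (4.20 ± 0.541). These lines overlapped, and LL2 WT replicate 2 stood well below the other LL2 WT samples. *KEAP1* KO #2 had 0.0344, 0.0173 and 0.238 CPM (0.0966 ± 0.123) and *KEAP1* KO #3 had 0, 0.0355 and 0.128 CPM (0.0544 ± 0.0659). *NRF2* KO was between, with 0.305, 0.285 and 0.435 CPM (0.342 ± 0.0812). All samples of these 3 lines lay below all samples of the other lines, *NRF2* KO lay above both *KEAP1* KO #2 and #3, and *KEAP1* KO #2 and #3 overlapped. The log2 fold changes were 0.39 in *KEAP1* KO #1, −4.22 in #2, −4.49 in #3 and −2.90 in *NRF2* KO (standard error 0.59 each). As a ratio of means *Bmp4* was 11.8-fold lower in *NRF2* KO, and against the floor it was 40.2-fold lower in *KEAP1* KO #2 and in #3, where 2 of 3 samples each were at or under 0.1 CPM.

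The sizes of the ligand differences depend on the pseudocount, since the low values lie near it. With 1 CPM in place of 0.1 CPM the log2 fold change of *Bmp2* was −1.48 in *KEAP1* KO #2, −1.21 in #3 and −1.41 in *NRF2* KO, and that of *Bmp4* was −2.01, −2.06 and −1.72, all in the same direction. In *KEAP1* KO #1 the sign for *Bmp4* rests on LL2 WT replicate 2, without which it was −0.40. *Bmp4* in *NRF2* KO was past the call rule under 7 of 16 alternatives. It was not without LL2 WT replicate 1 (−2.50) or 3 (−2.51) or *NRF2* KO replicate 1 (−2.85), 2 (−2.81) or 3 (−3.05), nor without replicate 3 of every line. In bulk RNA, fewer cells that make a transcript and less of it per cell cannot be told apart, and this holds for every member.

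The genes next to the ligands had median differences from −0.17 to 0.25, and some next to *Bmp4* were called lower. Within 1 Mb on each side of *Bmp2*, 6 other genes were tested, and their median log2 fold change was 0.19 in *KEAP1* KO #2 (range −0.27 to 1.53), 0.25 in #3 (−0.29 to 1.41) and −0.04 in *NRF2* KO (−0.76 to 0.67). Of these genes only *Hao1* was called, higher, in both *KEAP1* KO lines. Around *Bmp4*, 17 genes were tested. Their medians were −0.17, −0.09 and −0.0032. In the same order 3, 4 and 0 of them were called, all lower, beside 7.75%, 7.34% and 0.375% of all genes called lower. Among them were *Gch1*, *Fermt2* and *Gm49134* in both *KEAP1* KO lines, with a lowest value of −3.59 in each. *Gch1* was also called in *KEAP1* KO #1, where *Bmp4* was not low. These windows were looked at after the ligand values were known.

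*Grem1*, the gene of the secreted BMP antagonist gremlin 1, was lower in all 3 *KEAP1* KO lines than in LL2 WT and was not low in *NRF2* KO. LL2 WT had 16.5, 26.9 and 29.0 CPM (24.1 ± 6.69) and *NRF2* KO had 19.7, 50.8 and 34.8 CPM (35.1 ± 15.6), and these 2 lines overlapped. *KEAP1* KO #1 had 8.89, 12.8 and 11.4 CPM (11.0 ± 1.99), #2 had 7.80, 7.83 and 5.83 CPM (7.15 ± 1.14) and #3 had 10.23, 9.20 and 7.95 CPM (9.13 ± 1.14). All 9 samples lay below all 6 of the other 2 lines, *KEAP1* KO #1 and #3 overlapped, and every sample of #3 was above every sample of #2. The log2 fold changes were −1.096, −1.71, −1.36 and 0.48 in *KEAP1* KO #1, #2, #3 and *NRF2* KO (standard error 0.30 each). In *KEAP1* KO #1 the value fell short of the rule without LL2 WT replicate 2 (−0.996) or 3 (−0.94) or *KEAP1* KO #1 replicate 1 (−0.95). Within 1 Mb of *Grem1*, none of 6 tested genes was called in any of these comparisons.

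The receptors differed little. *Bmpr1a*, a type I receptor for BMP2 and BMP4, averaged 29.4 ± 2.42 CPM in LL2 WT, 29.1 ± 2.34 in *KEAP1* KO #1, 24.4 ± 1.19 in #2, 24.4 ± 1.44 in #3 and 32.7 ± 2.97 in *NRF2* KO. All samples of *KEAP1* KO #2 (23.1 to 25.5 CPM) and #3 (23.3 to 26.0 CPM) lay below the lowest LL2 WT sample at 27.6 CPM, a log2 fold change of −0.27 in each (standard error 0.10), and *NRF2* KO overlapped LL2 WT at 0.15. The type II receptor *Bmpr2* averaged 16.4 ± 4.48, 18.7 ± 2.47, 14.0 ± 1.36, 13.8 ± 2.37 and 15.4 ± 3.28 CPM in the same order, and every pair of neighbouring lines overlapped. Its log2 fold changes ran from −0.23 to 0.21 (standard error 0.20). Of these 8 differences, 3 took either sign when single samples were left out (−0.08 to 0.05 for *Bmpr1a* in *KEAP1* KO #1, −0.36 to 0.01 for *Bmpr2* in #2 and −0.24 to 0.13 for *Bmpr2* in *NRF2* KO).

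**Figure D2:**
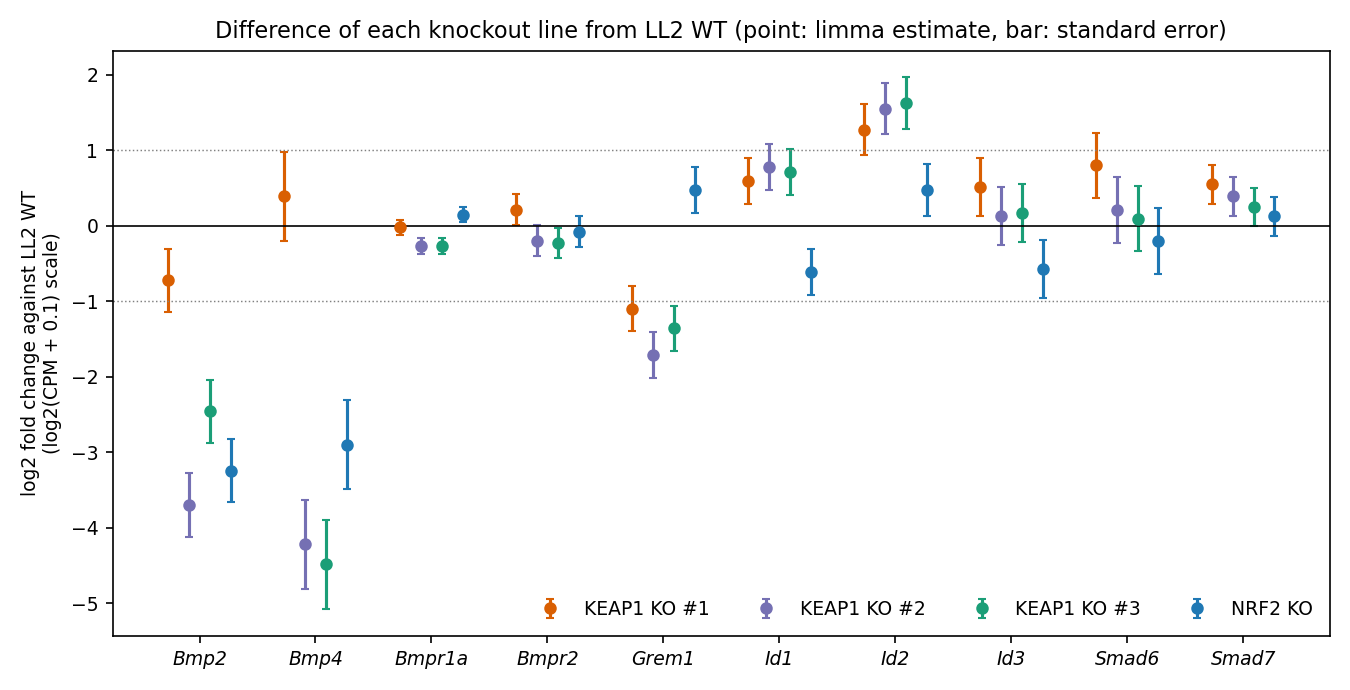
Points are log2 fold changes of each member against LL2 WT on the log2(CPM + 0.1) scale, 1 color for each knockout line, and bars are standard errors; dotted lines mark −1 and 1. *Bmp2* and *Bmp4* lie at −0.72 and 0.39 in *KEAP1* KO #1 and below −2 in the other lines. *Grem1* is below −1 and *Id2* above 1 in the 3 *KEAP1* KO lines, and the receptors stay near 0.

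Of the *Id* genes, *Id2* was higher in all 3 *KEAP1* KO lines than in LL2 WT and past the call rule in each, while *Id1* and *Id3* were not past it against LL2 WT in any line. For *Id2*, which restrains differentiation in several lineages, LL2 WT had 30.7, 63.2 and 70.0 CPM (54.6 ± 20.99). *KEAP1* KO #1 had 119, 159 and 102 CPM (126 ± 28.9), #2 had 181, 191 and 99.2 CPM (157 ± 50.6) and #3 had 178, 176 and 129 CPM (161 ± 27.9). All 9 samples lay above the highest LL2 WT sample. *NRF2* KO had 51.4, 99.9 and 71.0 CPM (74.1 ± 24.4) and overlapped LL2 WT, with its highest sample just above the lowest *KEAP1* KO sample. The log2 fold changes were 1.27, 1.55, 1.63 and 0.47 (standard error 0.34 each), and in *KEAP1* KO #1 the value was not past the rule without LL2 WT replicate 1 (0.90) or *KEAP1* KO #1 replicate 2 (1.097).

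*Id1*, the *Id* gene most often used as a readout of BMP signaling, had 50.4, 64.0 and 61.0 CPM in LL2 WT (58.5 ± 7.14). *KEAP1* KO #1 had 92.1, 124 and 58.7 CPM (91.7 ± 32.8), #2 had 117, 115 and 74.0 CPM (102 ± 24.3) and #3 had 107, 120 and 68.1 CPM (98.6 ± 27.2). Of these 9 samples, 8 were above every LL2 WT sample, and the exception was *KEAP1* KO #1 replicate 3. *NRF2* KO had the lowest mean, with 31.1, 54.7 and 32.5 CPM (39.4 ± 13.3), and overlapped LL2 WT. The log2 fold changes of 0.59, 0.78, 0.72 and −0.61 (standard error 0.30 each) are within the rule's limit of 1.

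*Id3*, like *Id1*, had its highest means in the *KEAP1* KO lines and its lowest in *NRF2* KO, with more spread between replicates. LL2 WT had 49.5, 68.6 and 65.8 CPM (61.3 ± 10.28), *KEAP1* KO #1 had 96.0, 138 and 49.6 CPM (94.6 ± 44.4) and *NRF2* KO had 37.7, 58.3 and 31.1 CPM (42.4 ± 14.2). *KEAP1* KO #2 had 83.2, 84.5 and 42.1 CPM (69.9 ± 24.2) and #3 had 75.2, 90.6 and 47.2 CPM (71.0 ± 22.0). All lines next to each other in the order of means overlapped. The log2 fold changes were 0.52, 0.13, 0.17 and −0.57 (standard error 0.39 each), and those of *KEAP1* KO #2 and #3 turned to −0.04 and −0.03 at the lowest when single samples were left out.

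The inhibitory SMADs were not past the call rule in any line. *Smad7*, which blocks the receptors of BMP and TGF-beta alike, was measured in the LL2 WT samples at 5.35, 6.43 and 6.66 CPM (6.14 ± 0.699). *KEAP1* KO #1 had 8.18, 11.3 and 7.85 CPM (9.11 ± 1.90), all above LL2 WT. *KEAP1* KO #2 had 10.5, 9.66 and 5.15 CPM (8.43 ± 2.87), #3 had 8.58, 7.19 and 6.27 CPM (7.35 ± 1.16) and *NRF2* KO had 5.24, 7.90 and 7.19 CPM (6.78 ± 1.38), all 3 overlapping LL2 WT. Against LL2 WT, the differences of *Smad7* came to 0.55, 0.39, 0.25 and 0.13 on the log2 scale (standard error 0.26 each). *Smad6*, which acts mainly on BMP receptors, was low in every line, with means of 0.534, 1.04, 0.637, 0.702 and 0.450 CPM and a range of 0.293 to 1.51 CPM over all samples. Its log2 fold changes ran from −0.20 to 0.80 (standard error 0.44), and the value in *KEAP1* KO #3 fell to −0.48 without replicate 1 of that line.

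Replicate 3 gave the lowest value of its line for *Id1*, *Id2*, *Id3* and *Smad7* in all 3 *KEAP1* KO lines. In these lines replicate 3 was the lowest sample for 23.5%, 29.8% and 26.5% of all genes tested. On the log2(CPM + 0.1) scale, replicate 3 differed from the mean of replicates 1 and 2 by −0.86, −0.65 and −0.74 for *Id1* in *KEAP1* KO #1, #2 and #3, by −0.42, −0.91 and −0.46 for *Id2* and by −1.21, −0.99 and −0.81 for *Id3*. The same difference was 0.10, 0.67 and 0.17 for these genes in LL2 WT, and its median over all genes was 0.02 to 0.16 by line. In *NRF2* KO it was −0.34 for *Id1*, −0.01 for *Id2* and −0.59 for *Id3*. The receptors lay the other way, with replicate 3 the highest sample of *Bmpr1a* and *Bmpr2* in each of the 5 lines (0.10 to 0.21 for *Bmpr1a* and 0.23 to 0.62 for *Bmpr2*). Without replicate 3 of every line, an alternative added after these values were seen, the log2 fold changes of *Id2* were 1.64, 2.08 and 2.00 and those of *Id1* 0.91, 1.03 and 1.00 in *KEAP1* KO #1, #2 and #3, so that *Id1* was past the rule in *KEAP1* KO #2. *Grem1* was then no longer past it in #1 (−0.97) and #3 (−1.11).

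**Figure D3:**
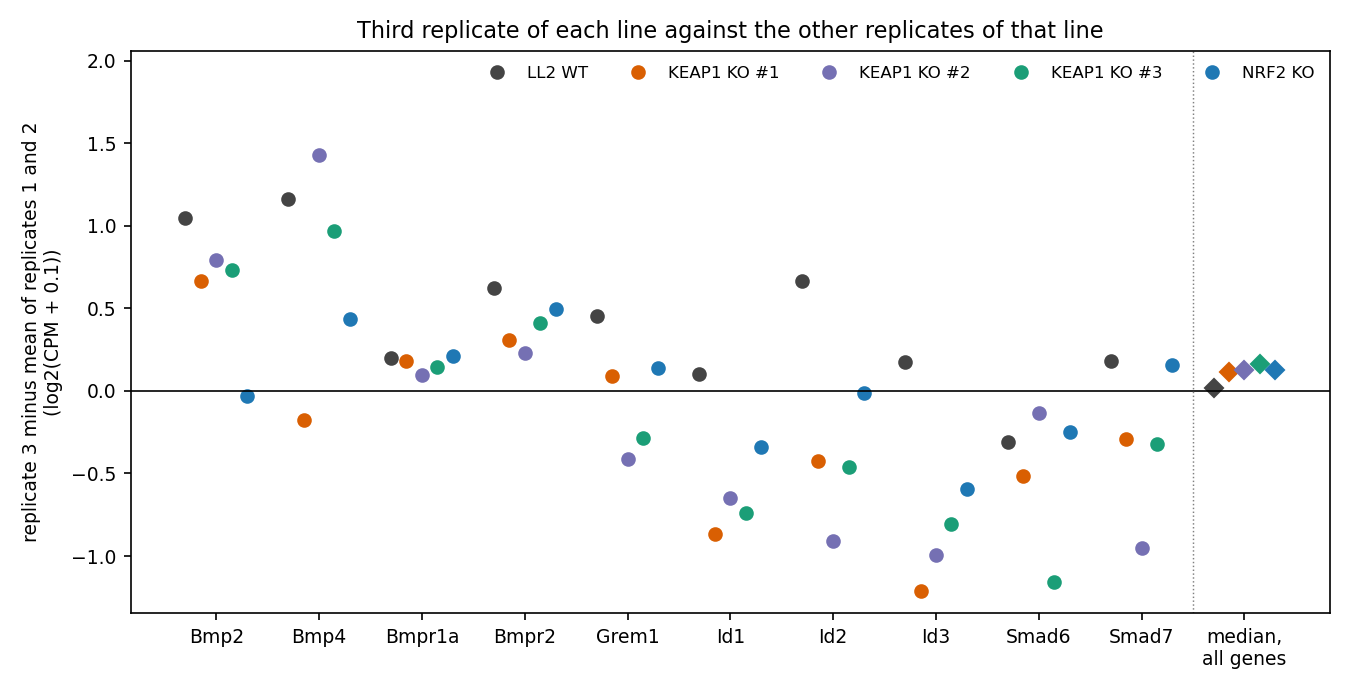
The y axis gives replicate 3 minus the mean of replicates 1 and 2 on the log2(CPM + 0.1) scale for each member and line (circles), with the median over all genes tested at the right (diamonds). In the *KEAP1* KO lines the *Id* genes and *Smad7* lie below 0 and the receptors above it, while the medians over all genes lie between 0.02 and 0.16.

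The 3 *KEAP1* KO clones were also set against *NRF2* KO, a comparison of NRF2-active with NRF2-lacking lines that needs no LL2 WT sample. Past the call rule were 3 members, *Id1* (log2 fold change 1.31) and *Id2* (1.01) higher and *Grem1* (−1.87) lower, beside 9.94% of all genes. Wholly apart were *Id1*, with every *KEAP1* KO sample above every *NRF2* KO sample, and *Grem1*, with every one below, beside 16.5% of all genes. *Id3* was 0.85 higher, while *Bmp2* (0.95) and *Bmp4* (0.13) mixed a clone with high levels and clones with low ones. *Id2* is at the limit: it was not past the rule without any 1 of 7 libraries, namely *KEAP1* KO #1 replicate 2 (0.95), #2 replicate 1 (0.97) or 2 (0.95), #3 replicate 1 (0.98) or 2 (0.99), or *NRF2* KO replicate 1 (0.77) or 3 (1.01), nor with quantile normalization.

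The rest of the pathway was taken from a list of 54 other BMP genes, grouped by role, of which 28 passed the filter. By limma and the same rule, with p adjusted over all 14652 genes, 9 of the 28 were called in *KEAP1* KO #1 (5 higher, 4 lower), 10 in #2 (4 higher, 6 lower) and 8 in #3 (3 higher, 5 lower), which is 32.1%, 35.7% and 28.6% of those tested, beside 8.54%, 13.7% and 13.4% of all genes. In *NRF2* KO none was called, while 4 had an unadjusted p under 0.05, beside 1641 of all 14652 genes. The median log2 fold change of the 28 was 0.09, 0.03, −0.06 and 0.02. Genes of the list were called in both directions in each *KEAP1* KO line, and the medians lay within 0.1 of 0. The list was chosen with earlier results of these data known, so nothing is read from the shares called. Between the *KEAP1* KO clones and *NRF2* KO, 7 of the 28 were called (4 higher, 3 lower), which is 25% beside 9.94% of all genes, namely *Tob1*, *Chrdl2*, *Nbl1* and *Msx1* higher and *Tgfbr3*, *Rgma* and *Rgmb* lower. *Msx1* (1.76, adjusted p = 0.0015), named after its value was seen, had a mean under the floor in *NRF2* KO. *Chrdl2* and *Nbl1*, also among the calls higher in *KEAP1* KO #2 and #3, passed the filter only through their values in those lines. *Rgmb* was not called without *NRF2* KO replicate 3 (−0.99). With pseudocounts of 1 or 0.5 CPM the count was 4, and *Chrdl2* (0.49 and 0.80), *Nbl1* (0.67 and 0.99) and *Msx1* were not called.

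Among receptors and co-receptors, 8 of 10 were tested, and 1 rose and 4 fell in *KEAP1* KO #1 and in #2, while 0 rose and 3 fell in #3. *Tgfbr3*, the gene of betaglycan, a co-receptor for TGF-beta and BMP ligands, stood at 53.9 ± 21.2 CPM in the parent and fell in all 3 lines, to 16.1 ± 4.89, 14.8 ± 5.12 and 14.7 ± 5.63 CPM (log2 fold changes −1.71, −1.84 and −1.86; limma adjusted p = 0.00379, 0.00159 and 0.0014). *Rgma*, a GPI-anchored BMP co-receptor, fell from 4.18 ± 1.85 CPM to 1.14 ± 0.599, 0.116 ± 0.124 and 0.126 ± 0.0637 CPM (−1.84, −4.35 and −4.19; adjusted p = 0.0225, 4.67e-05 and 5.86e-05). The call of *Rgma* in *KEAP1* KO #1 was lost without LL2 WT replicate 1 (−1.84) or 3 (−1.52) or *KEAP1* KO #1 replicate 2 (−1.34), and with 1 CPM as pseudocount its values in #2 and #3 came to −2.16 and −2.14. Its paralog *Rgmb* fell in #1 (−1.03, adjusted p = 0.00146) and #2 (−1.28, adjusted p = 0.000181). In #3 it was at 22.0 ± 1.56 CPM against 42.3 ± 11.9 CPM in LL2 WT (−0.91), just under the limit of the fold. It was called there without LL2 WT replicate 1 (−1.01) or 2 (−1.03). In #1 *Rgmb* was not called without LL2 WT replicate 3 (−0.81) or *KEAP1* KO #1 replicate 1 (−0.93) or 2 (−0.99). In *NRF2* KO, *Tgfbr3*, *Rgma* and *Rgmb* were at 46.8 ± 14.4, 3.34 ± 1.47 and 43.0 ± 6.93 CPM, each overlapping LL2 WT.

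*Acvrl1* (ALK1), a type I receptor best known from endothelium, stood at 0.684 ± 0.349 CPM in the parent. Without these LL2 WT values it would not have passed the filter, so no p is given for it. It fell in *KEAP1* KO #1 to 0.0368 ± 0.0255 CPM (−2.41) and in #2 to 0.0236 ± 0.0261 CPM (−2.56). Both means are under the floor, the call in #1 was lost without LL2 WT replicate 1 (−2.16), and with 1 CPM as pseudocount the values were −0.68 and −0.70. *Eng*, the gene of the co-receptor endoglin, fell in *KEAP1* KO #3 alone among the calls (−1.05, adjusted p = 0.000331), and not without LL2 WT replicate 2 (−0.91) or *KEAP1* KO #3 replicate 2 (−0.98). The type II receptor *Acvr2a* rose from 6.39 ± 0.813 CPM, in #1 to 13.6 ± 1.99 CPM (1.08, adjusted p = 9.72e-05) and in #2 to 12.9 ± 0.447 CPM (1.01, adjusted p = 8.94e-05). In #3 it was at 12.19 ± 0.750 CPM (0.93, adjusted p = 0.000157), just under the limit of the fold, and called without LL2 WT replicate 3 (1.03). The calls in #1 and #2 lie at the limit too: they were under it with median-ratio rescaling, with a pseudocount of 1 CPM, in #1 without *KEAP1* KO #1 replicate 2 (0.99) and in #2 without LL2 WT replicate 1 (0.94) or 2 (0.97) or *KEAP1* KO #2 replicate 3 (0.98). The type I receptor *Acvr1* and the type II receptor *Acvr2b* were not called in any line, and the type I receptor *Bmpr1b* did not pass the filter. The endothelial marker *Cdh5* was higher in *KEAP1* KO #2 and #3 (0.819 ± 0.0716 and 1.25 ± 0.283 CPM) than in LL2 WT (0.0227 ± 0.0225 CPM), the sum of the 3 endothelial markers ran from 2.47 to 3.68 CPM in LL2 WT, 2.79 to 4.84 in *KEAP1* KO #1, 5.12 to 6.65 in #2, 5.25 to 6.02 in #3 and 4.07 to 7.48 in *NRF2* KO, and *Kdr* was near 0; their part in these results was not tested.

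The SMAD transducers *Smad1*, *Smad5* and *Smad4* were tested and not called in any knockout line, with log2 fold changes from −0.20 to 0.43. By limma, 2, 1, 0 and 1 of them had an unadjusted p under 0.05 in *KEAP1* KO #1, #2, #3 and *NRF2* KO. Of all 14652 genes, 5315, 6287, 6237 and 1641 had one. *Smad9* did not pass the filter. Of the 12 other ligands, only *Bmp5* was tested, and it was not called. Inside the cell, *Tob1*, whose product can bind SMADs and dampen BMP signaling, stood at 20.5 ± 2.57 CPM in the parent and rose in the *KEAP1* KO lines, to 44.0 ± 5.87, 58.2 ± 4.05 and 56.2 ± 10.9 CPM (1.09, 1.503 and 1.44; adjusted p = 0.000274, 1.18e-05 and 1.48e-05) while *NRF2* KO had 21.9 ± 2.54 CPM. The call in #1 was lost without LL2 WT replicate 1 (0.99) and with median-ratio rescaling.

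Among antagonists, of which 7 of 14 were tested, the calls differed by clone. *Fst*, the gene of follistatin, which binds activins and some BMPs, rose in *KEAP1* KO #1 from 1.08 ± 0.167 to 3.98 ± 1.17 CPM (1.76, adjusted p = 0.0108), and *Bmper*, a modulator of BMP availability, rose there from 0.223 ± 0.0323 to 1.13 ± 0.134 CPM (1.93, adjusted p = 0.015). *Fst* averaged 1.59 ± 0.582 CPM in #2, 2.60 ± 1.29 in #3 and 1.75 ± 1.03 in *NRF2* KO, and was not called there. *Chrdl2*, of the chordin family, rose in #2 (2.62) and #3 (2.39), from 0.0381 ± 0.0193 CPM, which is under the floor, to 0.767 ± 0.235 and 0.646 ± 0.234 CPM. *Nbl1*, the gene of the antagonist DAN, rose in #3 from 0.159 ± 0.0607 to 1.78 ± 1.05 CPM (2.70). Its call in #2 (1.62) was lost without any 1 of LL2 WT replicate 1 (1.58) or 3 (1.48) and *KEAP1* KO #2 replicate 1 (1.27) or 2 (1.64). Both *Chrdl2* and *Nbl1* passed the filter only through their values in #2 and #3. Their calls there could therefore only be higher, and no p is given for either. *Fstl1*, a follistatin-like secreted protein, fell in #2 (−1.2001, adjusted p = 0.0104) and #3 (−1.54, adjusted p = 0.00218), the former not without LL2 WT replicate 3 (−0.86). With a pseudocount of 1 CPM the values of *Bmper* (0.80), *Chrdl2* (0.76 and 0.66) and *Nbl1* (1.19 in #3) were over 1.5 times smaller.

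Of 8 other target genes of the pathway, 4 were tested. *Msx2*, a homeobox gene induced by BMPs in limb and skull, fell in *KEAP1* KO #2 and #3 from 3.06 ± 1.92 to 0.426 ± 0.122 and 0.553 ± 0.0473 CPM (−2.44 and −2.10; adjusted p = 0.000973 and 0.00262). *Atoh8*, a target first described in endothelium and liver, rose in *KEAP1* KO #1 from 0.589 ± 0.410 to 3.16 ± 1.51 CPM (2.29, adjusted p = 0.0276), and the call was lost without LL2 WT replicate 1 (1.82) or 3 (2.31) or *KEAP1* KO #1 replicate 1 (2.02) or 2 (2.07). With a pseudocount of 1 CPM the values were −1.41 and −1.28 for *Msx2* and 1.34 for *Atoh8*.

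**Figure D4:**
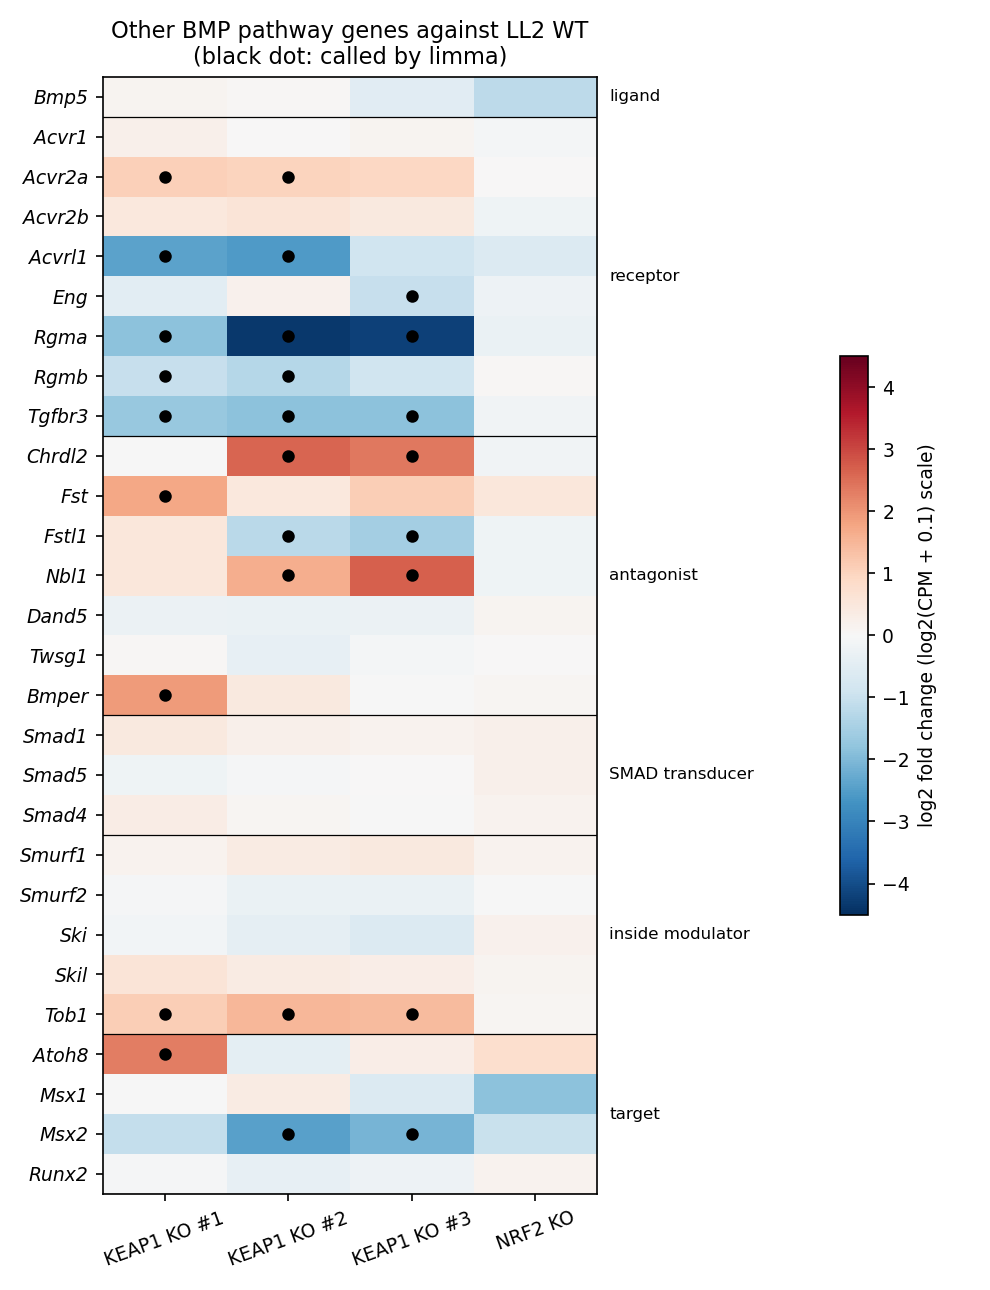
Rows are the 28 tested BMP pathway genes outside the 10 members, grouped by role, columns are the knockout lines, color is the log2 fold change against LL2 WT on the log2(CPM + 0.1) scale, and a black dot marks a call by limma. Calls number 9, 10, 8 and 0 by column, among receptors and co-receptors the dots lie mostly on lower values, and the SMAD transducers carry no dot.

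The TGF-beta and activin arm, which signals through SMAD2 and SMAD3, was taken as a comparison. Of its 12 genes 11 were tested, with 1 call in *KEAP1* KO #1, 4 in #2 and 1 in #3. That is 9.09%, 36.4% and 9.09% of those tested, beside 8.54%, 13.7% and 13.4% of all genes. This list too was chosen with earlier results known, so nothing is read from its shares. *Tgfbr3* and *Fst*, whose products also bind TGF-beta or activins, were counted in the BMP list. Between the *KEAP1* KO clones and *NRF2* KO, 2 were called (1 higher, 1 lower), which is 18.2% beside 9.94%. *NRF2* KO had 0 calls by limma, and 0 of the 11 had an unadjusted p under 0.05 there, beside 1641 of all 14652 genes. *Tgfb3* averaged 22.0 ± 9.37 CPM in the parent and fell to 9.05 ± 2.03 CPM in #2 and 8.97 ± 1.53 CPM in #3 (−1.21 in each, limma adjusted p = 0.00407 and 0.00393), and in neither without LL2 WT replicate 3 (−0.89 in each). *Tgfb2* was called higher in #1 (1.44, adjusted p = 0.0259), and not without LL2 WT replicate 1 (1.07) or 3 (1.31) or *KEAP1* KO #1 replicate 1 (1.40) or 3 (1.196). It was called lower in #2 (−1.19, adjusted p = 0.0456), and not without LL2 WT replicate 2 (−0.69) or 3 (−1.32) or *KEAP1* KO #2 replicate 1 (−1.26), 2 (−0.98) or 3 (−1.33). *Inhba*, the activin A subunit, was called lower in #2 (−1.45, adjusted p = 0.047), and not without LL2 WT replicate 3 (−0.72) or *KEAP1* KO #2 replicate 1 (−1.39), 2 (−1.46) or 3 (−1.502).

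For 1 member of each role, the one with the highest mean, the genes most like it over the 15 samples were sought among 11668 other genes with a mean of at least 1 CPM, by Pearson's r of log2(CPM + 0.1). The points are 5 lines in 3 replicates, so a shared difference between lines suffices for a high r. *Bmp4* was most like *Rnf114* (0.97), *Rpn2* (0.95) and *Foxc1* (0.94), and *Grem1* most like *Gpr149* (0.95), *Zfp93* (0.93) and *Nr2f2* (0.91). *Id2* was most like *Igsf11* (0.96), *Zfp65* (0.95) and *Pank1* (0.94), *Bmpr1a* most like *Wwox*, *Map3k3* and *Tcaf1* (0.95 to 0.96) and *Smad7* most like *Zfp317* (0.90), *Epc2* (0.89) and *Chchd2l* (0.86).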

How the data were processed

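RNA of 5 mouse LL2 lines (15 samples) was sequenced after poly-A library preparation. The authors pseudo-aligned reads with Kallisto and deposited CPM per gene symbol. Their methods name GRCm38.p6 cDNA, while the submitters' processing notes name GRCm39 and bcl2fastq 1.9.0, so the build is uncertain, and all positions here are those of GRCm38.p6. Of the 5901 to 8022 genes of a sample between 0.001 and 1 CPM, at most 20 share a value to 4 decimals, whereas the worth of 1 whole read would recur in many genes. Whole reads could therefore not be recovered, no count model was used, and a scaling by gene length before deposit cannot be told apart from fractional estimated counts. The entry without a symbol (0.0214% to 0.0491% of CPM) was left out.

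Genes whose CPM added up to 3 or more were kept. Limma 3.58.1 in R 4.3.3 was run on log2(CPM + 0.1), with 1 mean for each line and moderated, intensity-dependent variances, and p-values were adjusted over 14652 genes after Benjamini and Hochberg. Calls required adjusted p under 0.05 and log2 fold changes beyond 1 in size. The procedure was tested on simulated data, where at least 199 of 200 changed genes were recovered, with at most 9 false calls per comparison. The genes changed there were well expressed with a small spread, and the simulated samples varied independently. That test therefore does not cover genes near the floor or deviations shared between samples. Fold changes on this scale understate those of low genes.

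The members, the gene lists and the tests were chosen with earlier results of these data known. Named in the text are all members, every gene of the 2 wider lists called in at least 1 comparison with LL2 WT, and the tested SMAD transducers and BMP type I and II receptors. The values of 1 gene counted in the TGF-beta list are not reported here. The alternatives were 2 other pseudocounts, 2 other filters, 2 rescalings, a fit of only the lines compared, the replicate number as a block, and leaving out each sample in turn. Leaving out replicate 3 of every line, and replicate 3 as a batch, were added after seeing the data. Motifs and overlaps were found with Python 3.11.15.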

Additional observations from a re-analysis of the deposited data

Results flagged for a closer look

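These values mark genes whose difference from LL2 WT was not the same in the 3 *KEAP1* KO clones, by a direct comparison of clone with clone in the same limma model. For *Bmp2* and *Bmp4* they are a description, since the choice of these genes rested on known values. *Bmp2* was lower than in *KEAP1* KO #1 by a log2 fold change of −2.98 in #2 and −1.74 in #3, the latter not past the call rule without *KEAP1* KO #1 replicate 3 (−1.52) or *KEAP1* KO #3 replicate 2 (−1.42). *Bmp4* was lower than in #1 by −4.61 in #2 and −4.88 in #3, and stayed past the rule when any 1 library of the clones compared was left out.

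Among the wider lists, 5 of the comparisons between #2 and #1 were called by limma. *Rgma* was at −2.51 (adjusted p = 0.00809), *Chrdl2* at 2.64, *Fstl1* at −1.70 (adjusted p = 0.0037), *Tgfb2* at −2.62 (adjusted p = 0.00159) and *Atoh8* at −2.72 (adjusted p = 0.0208). No p is given for *Chrdl2*, which passed the filter only through its values in #2 and #3. The call of *Atoh8* was lost without *KEAP1* KO #1 replicate 1 (−2.46) or 2 (−2.51) or *KEAP1* KO #2 replicate 1 (−2.58) or 2 (−2.89).

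Between #3 and #1, *Chrdl2* was at 2.41 and *Fstl1* at −2.04 (limma adjusted p = 0.00117 for *Fstl1*). *Rgma* was at −2.35 (adjusted p = 0.0108), and not called without *KEAP1* KO #1 replicate 1 (−2.06) or *KEAP1* KO #3 replicate 2 (−2.13). *Nbl1* was at 2.19, and not called without *KEAP1* KO #1 replicate 1 (1.90) or *KEAP1* KO #3 replicate 1 (1.78) or 2 (2.07). No p is given for *Chrdl2* and *Nbl1*, which passed the filter only through their values in #2 and #3. *Bmper* was at −1.96 (adjusted p = 0.0228), and not called without *KEAP1* KO #1 replicate 1 (−2.01), 2 (−1.999) or 3 (−1.87) or *KEAP1* KO #3 replicate 2 (−1.84) or 3 (−1.47). *Tgfb2* was at −1.78 (adjusted p = 0.0149), and not called without *KEAP1* KO #1 replicate 1 (−1.75) or 3 (−1.54) or *KEAP1* KO #3 replicate 1 (−1.57). Between #3 and #2, only *Eng* was called, at −1.24 (adjusted p = 0.00162), and leaving out any 1 library of these clones did not end that call.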

How the results depend on the processing

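Of 15 member differences past the call rule, 9 were past it under every alternative in which the gene was kept and none changed sign. The filter on a mean of at least 1 CPM removed *Bmp2*, which left 3 members past the rule in *KEAP1* KO #2 and #3. Of 35 that were not past it, 9 changed sign under some alternative. Of 41 calls of listed genes, 16 held under every alternative in which the gene was kept. The cause of these changes was not tested. With a pseudocount of 1 CPM, the calls over all genes numbered 784, 1275, 1303, 44 and 804 in *KEAP1* KO #1, #2, #3, *NRF2* KO and the clones against *NRF2* KO (1251, 2006, 1967, 68 and 1457 with 0.1 CPM), and those of the other BMP genes 5, 6 and 4 in #1, #2 and the clones against *NRF2* KO. The latter was also 4 with 0.5 CPM and with a mean of at least 1 CPM.

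*NRF2* KO depended most on the processing. Over all genes it had 38 calls with a mean of at least 1 CPM, 43 without replicate 3 of every line, 173 with replicate 3 as a batch, 7 with only the lines compared and 30 to 90 when single samples were left out. Its members past the rule were 1 without a filter and without replicate 3 of every line, 0 with a mean of at least 1 CPM and with only the lines compared, and 1 to 2 without single samples. Of the other BMP genes 1 was called without a filter, with quantile normalization and with replicate 3 as a batch, and 0 to 1 without single samples.

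In *KEAP1* KO #1, 1 member was past the rule without replicate 3 of every line and with only the lines compared, and 1 to 2 without single samples, while 5 to 10 other BMP genes were called. Between #3 and #1, 8 members and listed genes differed, 5 with a pseudocount of 1 CPM, 4 with a mean of at least 1 CPM and 4 to 8 without single samples.

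The replicate numbers were not taken as pairs: over 11676 genes the median correlation of deviations was 0.28 for equal numbers and −0.19 for others, and every pair was over 0.1 in 2 of 10 pairs of lines and in 0 of 4 with LL2 WT. Samples numbered 3 did deviate together, at 0.42 to 0.63 in all 10 pairs of lines, and so did those numbered 2, at 0.13 to 0.53. Those numbered 1 ran from −0.02 to 0.28. With a replicate block, *NRF2* KO had 179 calls over all genes and 1 among the other BMP genes. *KEAP1* KO #1, #2 and #3 then had 1597, 2288 and 2270 calls over all genes, against 1251, 2006 and 1967 without the block.

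Depth is unknown, so the values of *Bmp2* and *Bmp4* near 0.1 CPM carry no counting interval. With 3 samples per line a permutation test of 1 gene cannot go below 0.1.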
